A study of Mus musculus with 12 samples.

Results

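The genes described here encode the enzymes of glycolysis, the carriers that bring glucose into the cell and take lactate out, and the kinases that set the pace of the pathway at its entry and at its exit into mitochondria. The list names 33 genes. A gene was read by the probe set that is annotated to its symbol alone and has the highest mean over the 12 arrays, which gave a value for 29 of them. Of these, 25 lay above a filter on dim signals and were tested among 12980 genes. The RNA came from spleens of 3-month-old mice, where cells were gated on Ter119, an erythroid surface marker, and on high CD71, the transferrin receptor of immature red cells. The 4 groups of 3 arrays each carry the genotype labels WT (wild type), E2f8 KO, Rb KO and DKO, the last for mice lacking both Rb and E2f8. How the alleles were made, in which cells they were deleted and whether animals were pooled is not stated in the sources used.

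Glycolysis splits glucose into pyruvate and yields ATP without oxygen. Mature red cells have no mitochondria and live on it, so erythroid precursors pass from mitochondrial respiration to glycolysis alone as they mature. Hexokinase, phosphofructokinase and pyruvate kinase are its controlled steps, lactate dehydrogenase recycles the NADH, and monocarboxylate carriers export the lactate. Many of its genes answer to oxygen through hypoxia-inducible factors, and dividing leukocytes also raise them strongly. Rb1 encodes the retinoblastoma protein, which holds E2F transcription factors in check, and E2f8 is an E2F family gene whose product acts mainly as a repressor.

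All values are log2 signals of 1 probe set, so a difference of 1 is a 2-fold change, and levels of different genes are not set against each other. The probe set of Rb1 was lower than WT in the arrays labelled E2f8 KO, by 1.11 ± 0.11 (SE, n = 3 per group, limma adjusted p = 0.000154), whereas in those labelled Rb KO its difference was -0.41 ± 0.11 (adjusted p = 0.394). E2f8 itself was higher by 0.86 ± 0.19 in the arrays labelled E2f8 KO (adjusted p = 0.00728). In DKO the Rb1 probe set was lower than WT, at -0.70 ± 0.11 (adjusted p = 0.000483), and that of E2f8 was higher, at 1.18 ± 0.19 (adjusted p = 0.000478). Whether these probe sets lie in the deleted parts is not given, so the group names below are labels only and every direction rests on them. Erythroid markers were high in all arrays, with a mean over 13 tested genes between 12.17 and 13.02, and Tfrc, the CD71 gene, lay between 11.73 and 13.09. Of the 13, 3 rose and 1 fell in E2f8 KO (11.9% and 14.2% of all genes) and in DKO (20.6% and 17.6%) against WT. In DKO against Rb KO, 7 rose and 1 fell (19.5% and 17.6% of all genes). Leukocyte markers were present too, at levels that differed by label. The mean of 14 B cell markers ran from 10.45 to 11.82 in WT, from 7.81 to 8.21 in E2f8 KO, from 9.86 to 12.01 in Rb KO and from 6.25 to 7.40 in DKO, and 0, 0, 0 and 3 of its genes lay below the filter level of 5.84 in those groups. Of these markers, 14 of 14 fell in E2f8 KO against WT, in DKO against WT and in DKO against Rb KO. The mean of 15 granulocyte markers ran from 6.30 to 6.45, from 8.11 to 8.56, from 6.82 to 6.89 and from 6.83 to 10.21 in the same order, and 9 of 15 rose in E2f8 KO and 10 in DKO against WT. Of the granulocyte genes, 3, 0, 3 and 0 had group means below the filter level in that order. Of 10 proliferation genes, 9 rose in E2f8 KO and 10 in DKO against WT, and their list means were 11.85 in WT, 12.61 in E2f8 KO, 11.98 in Rb KO and 12.87 in DKO. T and NK cell markers fell in 8 of 8 in each of the same 3 comparisons, and their list mean ran from 7.67 to 8.24 in WT, from 6.10 to 6.32 in E2f8 KO, from 6.99 to 8.07 in Rb KO and from 5.73 to 5.82 in DKO. Group means below the filter level were seen for 0, 3, 0 and 3 of these genes in that order. Macrophage markers fell in 13, 15 and 13 of 16, with list means of 10.06 in WT, 8.78 in E2f8 KO, 9.17 in Rb KO and 7.85 in DKO. The part of the proliferation, T and NK cell and macrophage lists in the results was not tested. Replicate 1 of Rb KO stood apart by its low B cell mean (9.86, against 11.97 and 12.01 in the others) and T and NK cell mean (6.99, against 7.93 and 8.07), and replicate 3 of DKO by its granulocyte mean (10.21). The X-inactivation transcript Xist was at 5.22 and 3.99 in replicate 3 of E2f8 KO and of DKO, against at least 11.30 in every other array.

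Under the E2f8 KO label, 5 of the 25 tested members were lower than WT and 0 were higher (limma, adjusted p under 0.05 over all genes), while 26.1% of all 12980 genes passed, 11.9% as higher and 14.2% as lower. In DKO against WT, 3 members were higher and 5 lower, against 38.2% of all genes (20.6% higher and 17.6% lower). In DKO against Rb KO, 4 were higher and 6 lower, against 37.1% (19.5% and 17.6%). The members' shares of 20%, 32% and 40% were near those of all genes, so these counts say nothing particular about the pathway. The median log2 difference of the members was -0.11, -0.018 and -0.029 in these comparisons, and that of all genes was 0.060, 0.00044 and -0.014. Groups without overlap were seen for 4 members on the higher and 6 on the lower side in E2f8 KO against WT (22.3% and 23.5% of all genes), for 5 and 6 in DKO against WT (24.5% and 21.4%) and for 4 and 3 in DKO against Rb KO (23.2% and 20.4%). These 3 comparisons share arrays. The E2f8 KO count was 3 without replicate 2 of WT and 9 (3 higher and 6 lower) without replicate 1 of Rb KO. The DKO against Rb KO count was 6 without replicate 3 of Rb KO.

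**Figure D1:**
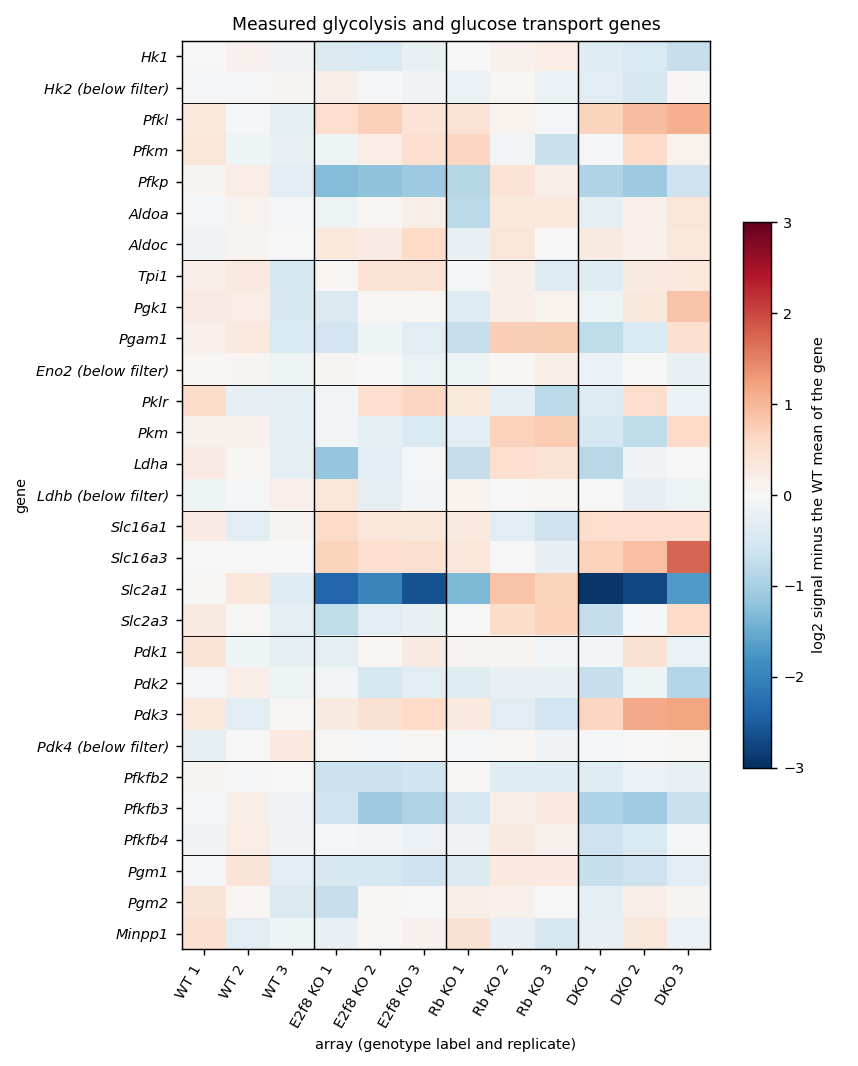
Log2 signal of the 29 measured genes (rows, ordered by role) in the 12 arrays (columns), as the difference from the gene's WT mean, with red for higher and blue for lower. Slc2a1 is the darkest row in the E2f8 KO and DKO arrays, while most enzymes of the lower pathway stay pale or vary from array to array.

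Of the glucose carriers among the members, 1 was called. In a wider list around the pathway, the carrier genes Slc2a6 and Slc2a8 were called and Slc2a4 and Slc2a9 were not. In DKO against WT, Slc2a6 fell by 1.11 ± 0.25 (limma adjusted p = 0.00407) and Slc2a8 rose by 0.55 ± 0.16 (adjusted p = 0.0143). Slc2a6 was at 7.55, 8.44 and 8.51 in Rb KO, lowest in the array with the low B cell mean. Slc2a1, which encodes the glucose carrier Glut1, had log2 signals of 9.61, 9.93 and 9.20 (WT), 7.19, 7.59 and 6.97 (E2f8 KO), 8.24, 10.44 and 10.25 (Rb KO) and 6.67, 6.84 and 7.87 (DKO). All E2f8 KO and DKO arrays lay below all WT and Rb KO arrays. Slc2a1 fell by 2.33 ± 0.49 (SE, n = 3 per group, limma adjusted p = 0.00564) in E2f8 KO against WT, a 5.02-fold difference, and by 2.45 ± 0.49 (adjusted p = 0.00175) in DKO against WT. In DKO against Rb KO it fell by 2.52 ± 0.49 (5.72-fold, adjusted p = 0.00178). These were the largest differences of any tested member in the 3 comparisons, and Slc2a1 stayed called in each of the 12 fits that left out 1 array. Its levels were low in the groups with low B cell markers. Within the Rb KO label, the array with the low B cell mean was also the array with the low Slc2a1, and within DKO, replicate 3 was the highest of the 3 in both. Within E2f8 KO, replicate 3 was the highest in the B cell mean and the lowest in Slc2a1. With the B cell mean as a covariate the E2f8 KO difference was 0.38 (adjusted p = 0.783) and the DKO difference was 1.38 (adjusted p = 0.132). Fewer cells of a type and less RNA per cell cannot be told apart in such bulk samples. Slc2a3, of the high-affinity carrier Glut3 found in neurons and leukocytes, had differences of -0.43 ± 0.30 (adjusted p = 0.308) in E2f8 KO and -0.07 ± 0.30 (adjusted p = 0.896) in DKO against WT. Its values were 8.12, 7.89 and 7.56 (WT), 7.09, 7.54 and 7.63 (E2f8 KO), 7.85, 8.42 and 8.55 (Rb KO) and 7.14, 7.81 and 8.42 (DKO). The log2 difference of Slc2a3 minus Slc2a1, set to 0 at its WT mean, was 1.63, 1.67 and 2.38 in E2f8 KO and 2.19, 2.69 and 2.27 in DKO, above all WT arrays (-0.32 to 0.24). In Rb KO it was 1.33, -0.31 and 0.03.

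The lactate carriers among the members were higher in DKO than in Rb KO. Slc16a7, another monocarboxylate carrier gene from the wider list around the pathway, was lower. It fell by 1.55 ± 0.31 (limma adjusted p = 0.00193) in DKO against Rb KO and by 1.65 ± 0.31 (adjusted p = 0.00109) in DKO against WT. In E2f8 KO against WT it fell by 1.30 ± 0.31 (adjusted p = 0.00917). Its DKO mean of 5.49 lay below the filter level of 5.84. In Rb KO it was at 6.30, 7.295 and 7.52, lowest in the array with the low B cell mean. Slc16a3, of the lactate exporter MCT4 of highly glycolytic cells, had log2 signals of 7.54, 7.52 and 7.51 (WT), 8.2, 8.02 and 8.0 (E2f8 KO), 7.89, 7.51 and 7.27 (Rb KO) and 8.22, 8.44 and 9.27 (DKO). The DKO arrays all lay above the arrays of the other 3 labels. Slc16a3 rose by 1.11 ± 0.24 (SE, n = 3 per group, limma adjusted p = 0.00317) in DKO against WT and by 1.09 ± 0.24 (adjusted p = 0.00404) against Rb KO. Its difference in E2f8 KO against WT was 0.55 ± 0.24 (adjusted p = 0.118), though those groups do not overlap. The highest DKO value belonged to the array with the highest granulocyte mean, and without that array the DKO difference from WT was 0.80 and still called. With the granulocyte mean as a covariate it was 0.50 (adjusted p = 0.188). The call against WT was lost under 2 of 13 alternative settings, with adjusted p up to 0.322. Slc16a1, of the carrier MCT1 that red cells use for lactate, was bright in all arrays, at 13.15, 12.55 and 12.97 (WT), 13.45, 13.25 and 13.22 (E2f8 KO), 13.17, 12.56 and 12.28 (Rb KO) and 13.39, 13.40 and 13.40 (DKO). The DKO values were almost equal, and above every WT and Rb KO array. Slc16a1 rose by 0.73 ± 0.19 (adjusted p = 0.0102) in DKO against Rb KO, a difference that turned to -0.65 (adjusted p = 0.271) with the B cell mean as a covariate. Its difference from WT was 0.51 ± 0.19 (adjusted p = 0.0547) in DKO and 0.42 ± 0.19 (adjusted p = 0.131) in E2f8 KO. Bsg, of the chaperone basigin that carries both lactate carriers to the surface and a gene of the wider list, rose by 0.39 ± 0.11 (adjusted p = 0.0154) in DKO against WT, a call lost without replicate 1 of DKO (adjusted p = 0.0573), and its difference was -0.19 (adjusted p = 0.647) with the B cell covariate.

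**Figure D2:**
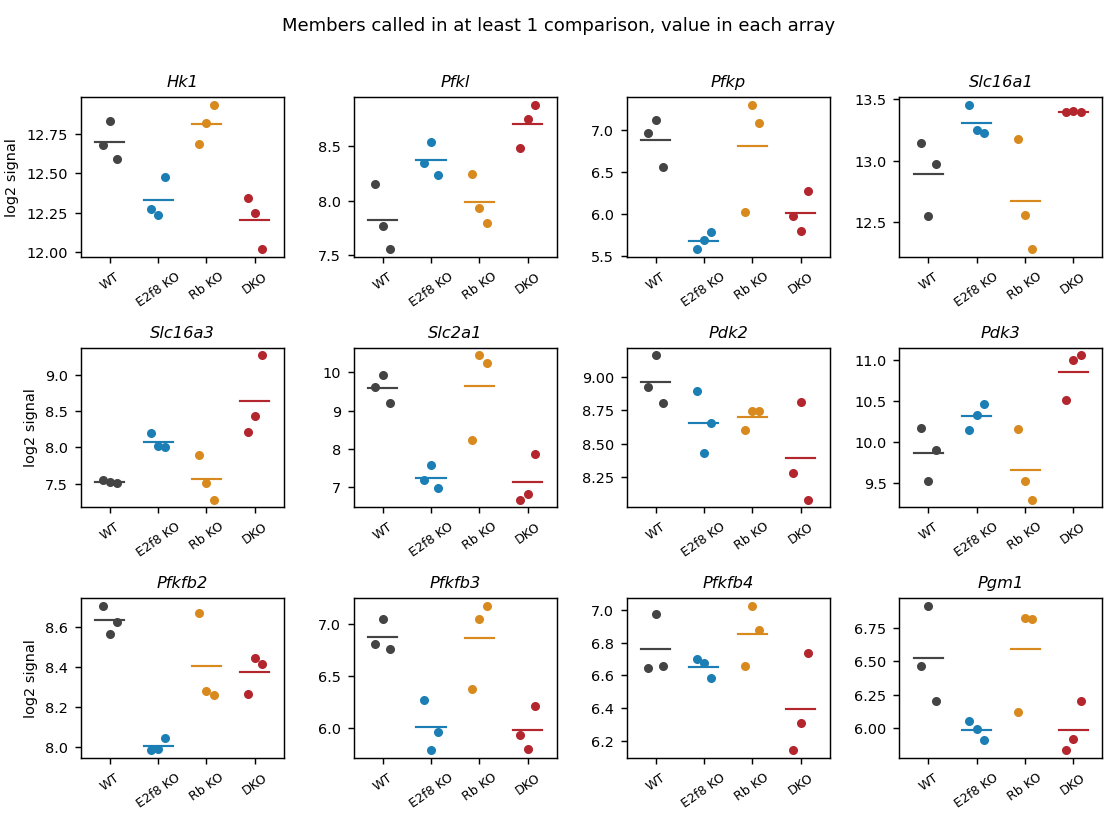
Log2 signal of each of the 12 genes called in at least 1 comparison, with 1 point per array, a bar at the mean of 3 arrays, and a vertical axis of its own in each panel. Slc2a1, Pfkp and Pfkfb3 are low in E2f8 KO and DKO, and Pfkl, Slc16a3 and Pdk3 are highest in DKO.

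Hexokinase traps glucose in the cell by phosphorylating it, and Hk1 is the form of red cells. By the selection rule Hk1 was lower than WT, by 0.37 ± 0.12 (limma adjusted p = 0.0335) in E2f8 KO and by 0.50 ± 0.12 (adjusted p = 0.0049) in DKO, and by 0.61 ± 0.12 (adjusted p = 0.00168) in DKO against Rb KO. That probe set had log2 signals of 12.68, 12.83 and 12.59 (WT), 12.27, 12.23 and 12.47 (E2f8 KO), 12.68, 12.82 and 12.93 (Rb KO) and 12.34, 12.25 and 12.02 (DKO). Its annotation rests on 1 accession, and all 16 probe sets that name Hk1 together with the ribosomal protein gene Rpl17 cite that accession too. All 16 of these were lower on average in E2f8 KO than in WT (by a median difference of -0.49) and in DKO (-0.51). The other Hk1 probe set, annotated through 8 accessions, went the opposite way, with 10.97, 10.49 and 10.64 (WT), 10.88, 11.05 and 10.93 (E2f8 KO), 11.05, 10.74 and 10.28 (Rb KO) and 10.89, 11.41 and 11.48 (DKO). Its difference from WT was 0.25 (adjusted p = 0.41) in E2f8 KO and 0.56 (adjusted p = 0.055) in DKO. The direction of Hk1 therefore depends on the probe set, and its call in E2f8 KO against WT was lost without replicate 1 or 2 of WT or of E2f8 KO (adjusted p from 0.0604 to 0.144). Hk2, the inducible hexokinase, had a mean of 5.81 over the arrays, just under the filter level of 5.84, and group means from 5.65 in DKO to 5.92 in E2f8 KO.

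Phosphofructokinase makes fructose 1,6-bisphosphate, the committed step. Its tetramers are built from liver (Pfkl), muscle (Pfkm) and platelet (Pfkp) type subunits. Pfkl had log2 signals of 8.15, 7.76 and 7.55 (WT), 8.35, 8.53 and 8.23 (E2f8 KO), 8.25, 7.93 and 7.79 (Rb KO) and 8.48, 8.75 and 8.88 (DKO). It rose by 0.88 ± 0.20 (limma adjusted p = 0.00363) in DKO against WT and by 0.72 ± 0.20 (adjusted p = 0.0125) against Rb KO, with no overlap between the groups, and its difference in E2f8 KO against WT was 0.55 ± 0.20 (adjusted p = 0.0569). The call against Rb KO was lost without replicate 3 of Rb KO or of DKO (adjusted p = 0.0554 and 0.0525). The DKO difference from WT was 0.66 with either the B cell or the granulocyte mean as a covariate, no longer called (adjusted p = 0.447 and 0.109), and neither was that from Rb KO (0.48 and 0.55, adjusted p = 0.634 and 0.123). Pfkp moved the other way. Its values were 6.97, 7.11 and 6.56 (WT), 5.58, 5.68 and 5.78 (E2f8 KO), 6.02, 7.30 and 7.09 (Rb KO) and 5.98, 5.80 and 6.27 (DKO). All E2f8 KO arrays and replicate 2 of DKO lay below the filter level of 5.84. Pfkp thus passed the filter through its brighter groups, and the sizes of its falls rest on dim signals. It fell by 1.2 ± 0.27 (2.30-fold, adjusted p = 0.0078) in E2f8 KO against WT, by 0.86 ± 0.27 (adjusted p = 0.0227) in DKO against WT and by 0.79 ± 0.27 (adjusted p = 0.0365) against Rb KO, where replicate 1 of Rb KO overlapped the DKO arrays. Both DKO calls for Pfkp were lost without replicate 1 or 2 of DKO (adjusted p from 0.0576 to 0.121), the call against WT also without replicate 1 or 2 of WT (0.0632 and 0.0893), and that against Rb KO without replicate 2 or 3 of Rb KO (0.166 and 0.139). As with Slc2a1, the Rb KO array low in B cell markers was low in Pfkp. With the B cell mean as a covariate the signs turned, to 0.27 in E2f8 KO (adjusted p = 0.752) and 1.21 in DKO against WT (adjusted p = 0.047). These values extend a slope from within groups, as the B cell means of E2f8 KO and DKO do not overlap those of WT. The log2 difference of Pfkp minus Pfkl, set to 0 at its WT mean, was -1.83, -1.91 and -1.51 in E2f8 KO and -1.56, -2.01 and -1.67 in DKO, against -1.28, 0.31 and 0.24 in Rb KO and -0.24 to 0.29 in WT. Pfkm had no called difference and spread widely within Rb KO, at 9.20, 8.47 and 7.87.

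The bifunctional enzymes of the Pfkfb family make and remove fructose 2,6-bisphosphate, the strongest activator of phosphofructokinase. Pfkfb3, of the form with the highest kinase activity, had log2 signals of 6.80, 7.05 and 6.76 (WT), 6.27, 5.79 and 5.97 (E2f8 KO), 6.38, 7.05 and 7.17 (Rb KO) and 5.93, 5.80 and 6.21 (DKO). All E2f8 KO and DKO arrays were below all WT and Rb KO arrays, and replicate 2 of E2f8 KO and of DKO lay below the filter level of 5.84. Pfkfb3 fell by 0.86 ± 0.20 (limma adjusted p = 0.00981) in E2f8 KO and by 0.89 ± 0.20 (adjusted p = 0.00433) in DKO against WT, and by 0.88 ± 0.20 (adjusted p = 0.00471) in DKO against Rb KO. Without replicate 2 of WT the first of these had an adjusted p of 0.0502. With the B cell mean as a covariate the differences from WT were 0.022 (adjusted p = 0.992) in E2f8 KO and 0.36 (adjusted p = 0.601) in DKO.

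Pfkfb2 was called in E2f8 KO against WT alone. This isoform, known from heart and a target of Akt, had values of 8.71, 8.57 and 8.63 (WT), 7.98, 7.99 and 8.04 (E2f8 KO), 8.67, 8.28 and 8.26 (Rb KO) and 8.27, 8.45 and 8.42 (DKO). The E2f8 KO arrays were close together and below every other array. Pfkfb2 fell by 0.63 ± 0.16 (limma adjusted p = 0.0124) in E2f8 KO against WT. Its difference in DKO against WT was -0.26 ± 0.16 (adjusted p = 0.23), though all DKO arrays lay below all WT arrays. The test of the difference between the E2f8 effects in both Rb backgrounds (the interaction) gave 0.60 ± 0.22 with an adjusted p of 0.81. Unlike for Slc2a1, Pfkp and Pfkfb3, the Pfkfb2 difference kept its sign with the B cell mean as a covariate, at -0.98 (adjusted p = 0.101). Pfkfb4 was at 6.65, 6.98 and 6.66 (WT), 6.70, 6.68 and 6.59 (E2f8 KO), 6.66, 7.03 and 6.88 (Rb KO) and 6.14, 6.31 and 6.74 (DKO). It fell by 0.46 ± 0.17 (adjusted p = 0.0466) in DKO against Rb KO, where the groups overlap and the call was lost in 8 of the 12 fits without 1 array. Pfkfb1, the liver form, has no probe set of its own here.

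**Figure D3:**
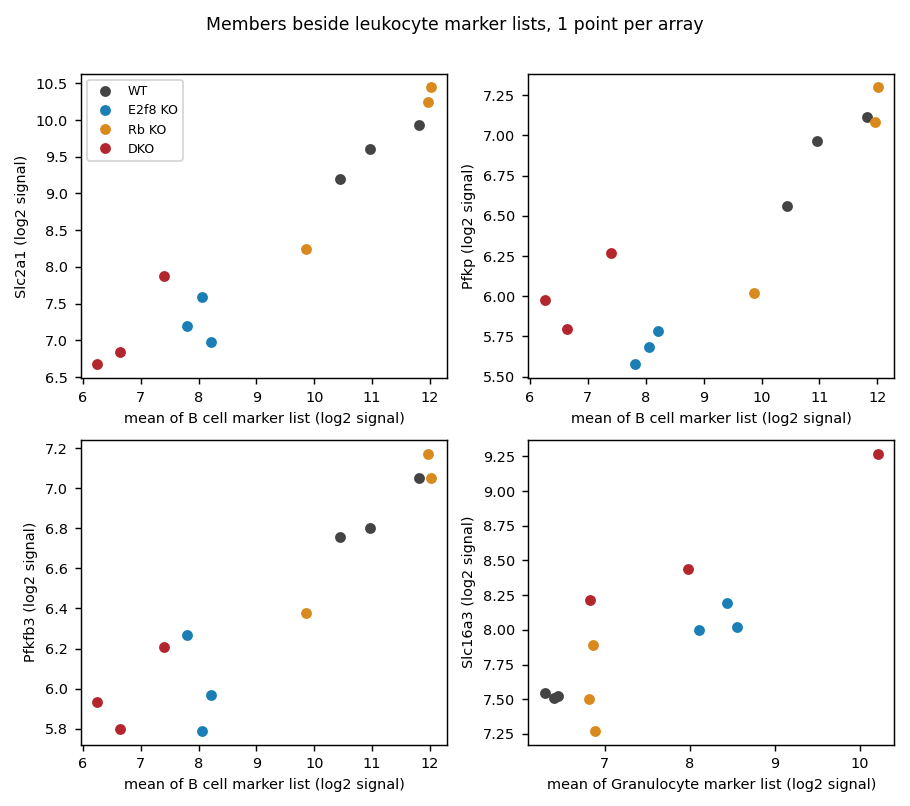
Log2 signals of Slc2a1, Pfkp and Pfkfb3 against the mean of 14 B cell markers, and of Slc16a3 against the mean of 15 granulocyte markers, with 1 point per array coloured by genotype label. The Rb KO array with a B cell mean of 9.86 lies between the clusters in Slc2a1 and Pfkfb3 signal, and its Pfkp of 6.02 lies among the DKO values. The DKO array with a granulocyte mean of 10.21 has the highest Slc16a3.

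The enzymes from aldolase to lactate dehydrogenase carry the main flux, and 0 of their 8 tested genes were called in any of the 6 comparisons (limma, adjusted p under 0.05), against 26.1%, 38.2% and 37.1% of all genes in E2f8 KO against WT, DKO against WT and DKO against Rb KO. Of these, Aldoc alone had an unadjusted p under 0.05, in E2f8 KO against WT, where its difference was 0.40 ± 0.16 (adjusted p = 0.0858) with groups that do not overlap. Aldoa, of the main aldolase of red cells, was at 10.71, 10.87 and 10.71 (WT), 10.60, 10.82 and 10.95 (E2f8 KO), 9.95, 11.09 and 11.08 (Rb KO) and 10.48, 10.90 and 11.13 (DKO). Ldha, which favours lactate formation, was at 10.80, 10.63 and 10.26 (WT), 9.41, 10.24 and 10.51 (E2f8 KO), 9.85, 11.07 and 10.98 (Rb KO) and 9.74, 10.47 and 10.56 (DKO). In both genes the groups overlap, and a single array (replicate 1 of Rb KO) set most of the spread in its group. Pgam1 (phosphoglycerate mutase) had that pattern too, with 8.72 in replicate 1 of Rb KO and 10.15 and 10.17 in the others. Pgk1, of the first ATP-yielding step, had 8.74, 9.24 and 9.76 in DKO and between 8.42 and 9.14 in WT, and its 3 probe sets gave differences from WT of 0.35 to 0.43 in DKO (adjusted p = 0.313 to 0.392, fitted over all probe sets). Tpi1 (triose phosphate isomerase) ranged from 8.82 to 9.75 over all arrays.

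Pyruvate kinase has an erythroid and liver gene, Pklr, and a gene of most other cells, Pkm. Pklr was at 9.999, 9.22 and 9.16 (WT), 9.37, 9.96 and 10.11 (E2f8 KO), 9.76, 9.19 and 8.65 (Rb KO) and 9.06, 9.97 and 9.29 (DKO). Pkm was at 8.72, 8.71 and 8.33 (WT), 8.51, 8.31 and 8.14 (E2f8 KO), 8.25, 9.27 and 9.36 (Rb KO) and 8.06, 7.82 and 9.19 (DKO). Within Rb KO, Pkm was higher in the arrays where Pklr was lower, and Pkm minus Pklr, relative to WT, was -0.64, 0.95 and 1.57 there, and the high Pkm of DKO was in the array with the most granulocyte signal. Against WT, Ldha in E2f8 KO was at -0.51 ± 0.35 (limma adjusted p = 0.308) and Pkm in Rb KO at 0.37 ± 0.35 (adjusted p = 1). With 3 arrays per group, a miss at such standard errors does not show that levels were equal. Ldhb and Eno2, the forms of heart and of neurons, had means of 5.49 and 5.69 and lay below the filter. Gapdh is named only by 25 probe sets that also name near-identical copies, whose median signal was 13.22 in WT, 13.13 in E2f8 KO, 13.30 in Rb KO and 13.20 in DKO. For Gpi1 and Eno1 no probe set is annotated to the symbol here.

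The pyruvate dehydrogenase kinases switch off the entry of pyruvate into mitochondria. Pdk3, an isoform that responds to hypoxia, had log2 signals of 10.17, 9.53 and 9.90 (WT), 10.14, 10.33 and 10.47 (E2f8 KO), 10.17, 9.53 and 9.30 (Rb KO) and 10.51, 11.002 and 11.05 (DKO). Every DKO array lay above every other array. Pdk3 rose by 0.99 ± 0.24 (limma adjusted p = 0.00638) in DKO against WT and by 1.19 ± 0.24 (2.28-fold, adjusted p = 0.00233) against Rb KO, while its difference from E2f8 KO was 0.54 ± 0.24 (adjusted p = 0.267). It is the called member with the largest rise against Rb KO, and it stayed called in these comparisons in all 12 fits without 1 array. With the B cell mean as a covariate its difference from WT was 0.059 (adjusted p = 0.957). Pdk2 was at 8.93, 9.17 and 8.81 (WT), 8.89, 8.43 and 8.65 (E2f8 KO), 8.60, 8.74 and 8.74 (Rb KO) and 8.28, 8.81 and 8.08 (DKO). It fell by 0.58 ± 0.21 (adjusted p = 0.0418) in DKO against WT, with overlap at replicate 2 of DKO, and the call was lost in 7 of the 12 fits without 1 array. Pdk1, a well-known hypoxia target, had differences from WT of at most 0.05 (SE 0.22), and Pdk4 had a mean of 5.24, below the filter.

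Side branches of the pathway gave 1 call. Pgm1, which links glucose 6-phosphate to glycogen and was named Pgm2 in older mouse annotation, was at 6.46, 6.92 and 6.2 (WT), 6.05, 5.99 and 5.91 (E2f8 KO), 6.12, 6.83 and 6.82 (Rb KO) and 5.83, 5.92 and 6.2 (DKO). It fell by 0.61 ± 0.21 (limma adjusted p = 0.0374) in DKO against Rb KO, a call lost without replicate 1 or 2 of DKO, replicate 2 or 3 of Rb KO or replicate 2 or 3 of E2f8 KO. Its differences from WT were -0.54 in both E2f8 KO and DKO (adjusted p = 0.0728 and 0.0568). It had the lowest mean of the members that passed the filter, 6.27. Pgm2, and Minpp1, which turns 2,3-bisphosphoglycerate into 2-phosphoglycerate, had no called difference.

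**Figure D4:**
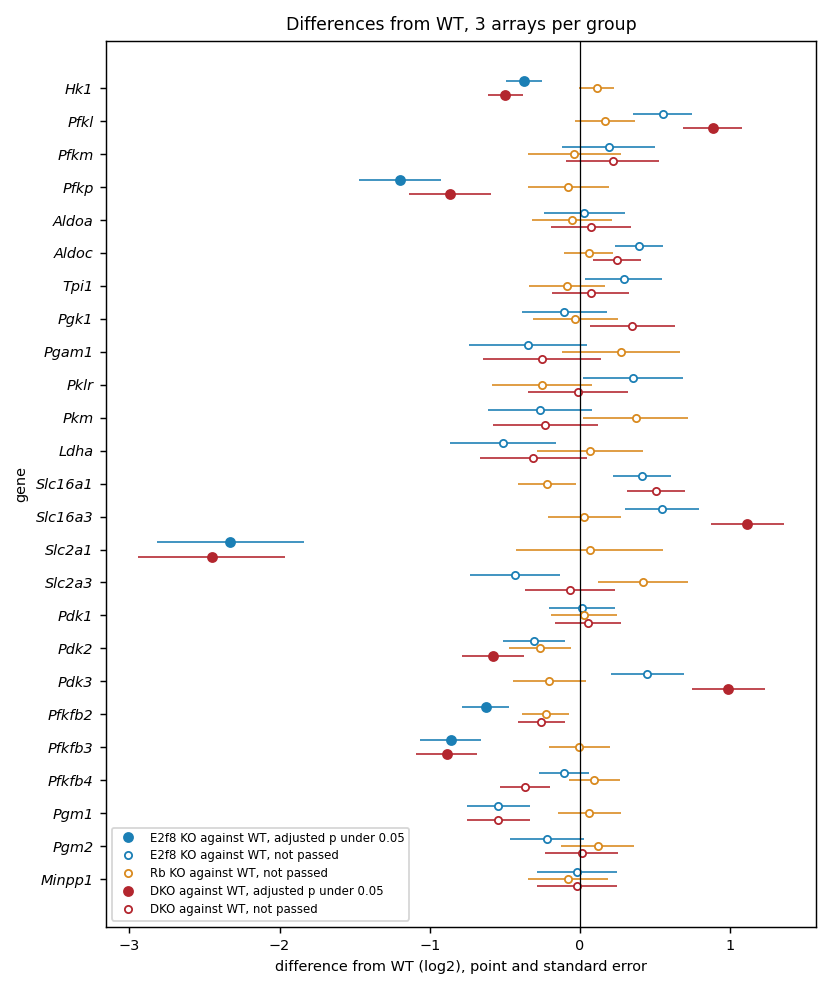
Difference from WT of each of the 25 tested genes on the log2 scale (horizontal axis) in the arrays labelled E2f8 KO, Rb KO and DKO, with bars of 1 standard error. Filled points passed an adjusted p of 0.05, and every Rb KO point is open and lies between -0.27 and 0.42.

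The arrays labelled Rb KO did not differ from WT in any member at the threshold. Of the 25 tested, 0 were called and 0 had an unadjusted p under 0.05 by limma, against 0.0077% of all genes called (1 gene). Differences ran from -0.27 (Pdk2) to 0.42 (Slc2a3), with standard errors between 0.12 and 0.49. No member was called in any of the 12 fits without 1 array. Groups without overlap were seen for 0 members on the higher side (2.25% of all genes) and 1, Pdk2, on the lower side (4.03%). Between DKO and E2f8 KO, too, 0 members were called, with 2.37% of all genes called (1.73% higher and 0.647% lower). In that comparison, 3 members had an unadjusted p under 0.05 by limma: Slc16a3 at 0.57 ± 0.24 (adjusted p = 0.247), Pdk3 at 0.54 ± 0.24 (adjusted p = 0.267) and Pfkfb2 at 0.37 ± 0.16 (adjusted p = 0.243), all higher in DKO with groups that do not overlap. Such separation was seen for 4 of 25 members on the higher side and 0 on the lower side, and for 18.1% and 17% of all genes. The fourth was Pfkp, at 0.33 ± 0.27 (adjusted p = 0.525). For the interaction of both labels, limma called 0 members and 0.077% of all genes (0.0539% higher and 0.0231% lower). Here 2 members had an unadjusted p under 0.05, Pfkfb2 as given above and Pdk3 at 0.74 ± 0.34 (adjusted p = 0.869).

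The order of the arrays within a group was often shared among members. Replicate 3 of DKO was the highest of its group in 16 of 25 members and in 35.1% of all genes, and replicate 1 of DKO the lowest in 18, against 46.4% of all genes. Replicate 3 of WT was lowest in 18 of 25, against 45.8% of all genes. Replicate 1 of Rb KO was lowest in 14 and highest in 9, against 38.5% and 44.3% of all genes, and the genes in which it was low included Slc2a1, Pfkp, Pgam1, Pkm, Aldoa and Ldha.

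Promoters are given for called members that fell (Slc2a1 and Pfkp) or rose (Slc16a3 and Pdk3) in DKO against WT and against Rb KO. They are a selection, as Pfkfb3 and Pfkl differed at least as much as Pfkp in DKO against WT. In E2f8 KO against WT, Slc16a3 and Pdk3 were not called. RefSeq (GRCm38.p6) holds promoter windows for 32 of the 33 members, at 52 annotated starts, each reaching from 250 bases before to 50 bases after the start. The 250 bases before the start follow for Slc2a1 (chr4:119108495-119108744, plus strand) and Pfkp (chr13:6648772-6649021, minus strand), which fell, and for Slc16a3 (chr11:120948817-120949066, plus strand) and Pdk3 (chrX:93832151-93832400, minus strand), which rose. Capitals mark ACGTG or GCGTG on either strand, the core of the element that hypoxia-inducible factors bind.
Slc2a1: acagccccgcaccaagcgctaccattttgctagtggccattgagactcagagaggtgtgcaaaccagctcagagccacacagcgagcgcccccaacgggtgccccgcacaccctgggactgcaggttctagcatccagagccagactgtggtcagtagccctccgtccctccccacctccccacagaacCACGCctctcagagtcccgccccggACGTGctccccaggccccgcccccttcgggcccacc
Pfkp: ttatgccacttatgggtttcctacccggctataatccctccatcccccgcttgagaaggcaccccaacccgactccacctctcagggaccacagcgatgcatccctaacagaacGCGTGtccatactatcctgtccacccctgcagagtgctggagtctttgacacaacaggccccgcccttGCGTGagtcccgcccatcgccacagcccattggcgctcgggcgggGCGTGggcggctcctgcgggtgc
Slc16a3: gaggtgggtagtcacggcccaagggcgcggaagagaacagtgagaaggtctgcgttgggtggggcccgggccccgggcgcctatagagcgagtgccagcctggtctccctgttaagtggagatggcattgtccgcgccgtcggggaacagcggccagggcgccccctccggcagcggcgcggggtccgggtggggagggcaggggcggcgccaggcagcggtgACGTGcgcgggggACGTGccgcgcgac
Pdk3: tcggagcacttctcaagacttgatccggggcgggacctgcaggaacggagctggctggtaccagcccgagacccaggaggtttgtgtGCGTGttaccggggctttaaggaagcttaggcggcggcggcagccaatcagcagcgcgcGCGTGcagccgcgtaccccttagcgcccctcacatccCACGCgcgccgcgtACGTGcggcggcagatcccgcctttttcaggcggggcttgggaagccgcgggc
The core occurs 2 times in these bases of Slc2a1, 3 times in Pfkp, 2 times in Slc16a3 and 4 times in Pdk3, so it is present in genes that fell and in genes that rose. In full windows it was found at 38 of 52 member starts (73.1%) and at 43.8% of 32851 windows of all genes. Member windows were also richer in G and C, with a median of 58.3% against 52.7%. The word CACGTG, which contains ACGTG, was in 6 of 52 member windows (11.5%, against 7.15% of all). The E2F words TTCCCGC or TTGGCGC were in 8 of 52 (15.4%, against 6.81%), at starts of Hk2, Ldha, Minpp1, Pfkfb1, Pfkp, Pgk1, Pkm and Slc16a1, and of these Pfkp was called lower and Slc16a1 higher. GATA words (AGATAA or TGATAA) were in 12 of 52 (23.1%, against 18.6%) and the Klf word CCNCACCC in 9 of 52 (17.3%, against 16.6%), both on either strand. A match of letters is no evidence that a factor binds there.

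Genes around the pathway, a list of 79 of which 64 were tested, included larger changes than the members apart from Slc2a1. In E2f8 KO against WT, 10 were higher and 9 lower, in DKO against WT 15 and 14, in DKO against Rb KO 15 and 12, in DKO against E2f8 KO 2 and 1, and in Rb KO against WT 0 and 0 (limma, adjusted p under 0.05). Of all genes, 11.9% were higher and 14.2% lower in the first, 20.6% and 17.6% in the second, 19.5% and 17.6% in the third, and 1.73% and 0.647% in the fourth. Bpgm makes 2,3-bisphosphoglycerate, which lowers the oxygen affinity of hemoglobin, from a glycolytic intermediate. Bpgm was at 12.80, 13.29 and 13.24 (WT), 11.82, 11.64 and 11.43 (E2f8 KO), 12.90, 12.92 and 13.18 (Rb KO) and 11.27, 10.98 and 10.75 (DKO). The E2f8 KO and DKO arrays lay below all WT and Rb KO arrays. The DKO arrays also lay below those of E2f8 KO, as for 17% of all genes, but that difference of -0.63 ± 0.17 was not called (adjusted p = 0.0722). Bpgm fell by 1.47 ± 0.17 in E2f8 KO (adjusted p = 0.000256) against WT. In DKO it fell by 2.11 ± 0.17 against WT (adjusted p = 5.06e-06), and its difference from Rb KO was -2.0 ± 0.17 (adjusted p = 1.4e-05). Pgp, of a phosphatase that clears side products of glycolytic enzymes, rose by 1.60 ± 0.26 (adjusted p = 0.00175) in E2f8 KO and by 2.02 ± 0.26 (adjusted p = 0.00012) in DKO against WT. These Pgp differences, fitted with the B cell mean as a covariate, were 0.68 (adjusted p = 0.498) and 0.72 (adjusted p = 0.448), while those of Bpgm were -1.52 (adjusted p = 0.0243) and -2.18 (adjusted p = 0.00756). Pygb, a glycogen phosphorylase gene, fell by 1.34 ± 0.24 (adjusted p = 0.00249) and by 1.51 ± 0.24 (adjusted p = 0.000379) in these comparisons, and its Rb KO values were 7.94, 8.83 and 8.92, with the low one again in replicate 1. The Pygb differences were -0.17 (adjusted p = 0.879) in E2f8 KO and 0.14 (adjusted p = 0.841) in DKO with that covariate.

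Genes that act on the entry of pyruvate into mitochondria included 3 that rose in DKO. Of 10 tested, 3 (Pdp1, Pdpr and Pdhx) rose in E2f8 KO against WT, where 11.9% of all genes rose and 14.2% fell. These calls were lost in 7, 5 and 5 of the 12 fits without 1 array. In DKO against WT, 3 rose and 1 fell, where 20.6% of all genes rose and 17.6% fell. Pdp1, of the phosphatase that reverses the kinases, was at 8.07, 8.13 and 7.91 (WT), 8.65, 8.37 and 8.62 (E2f8 KO), 8.36, 8.45 and 8.33 (Rb KO) and 9.79, 10.05 and 10.22 (DKO). It rose by 1.99 ± 0.17 (limma adjusted p = 6.14e-06) in DKO against WT and by 1.47 ± 0.17 (adjusted p = 0.000568) in DKO against E2f8 KO. Its interaction was 1.13 ± 0.23 (adjusted p = 0.168), so a difference between the effects of either label in both backgrounds was not called. Pdpr, the regulatory subunit of that phosphatase, rose by 1.57 ± 0.27 (adjusted p = 0.000651) and Pdhx, a structural part of the dehydrogenase complex, by 1.24 ± 0.22 (adjusted p = 0.000799) in DKO against WT. The DKO differences from WT were 2.37 for Pdp1 (adjusted p = 0.00439), 1.203 for Pdpr (adjusted p = 0.284) and 0.53 for Pdhx (adjusted p = 0.552) with the B cell covariate. Pdp2, of a second catalytic form of the phosphatase, fell by 0.51 ± 0.18 (adjusted p = 0.044) in DKO against Rb KO, a call lost in 7 of the 12 fits without 1 array. The gene of this list that fell was Pcx, of pyruvate carboxylase, by 0.72 ± 0.23 (adjusted p = 0.023), and it fell by 0.93 ± 0.23 (adjusted p = 0.0495) in DKO against E2f8 KO. These Pcx calls were lost in 3 and 10 of the 12 fits without 1 array. Its difference in Rb KO against WT was -1.05 ± 0.23 (adjusted p = 0.186), with values of 10.02, 9.56 and 9.10 against 10.43 to 10.87 in WT.

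The glucose-sensing transcription factor gene Mlxip and its known targets Txnip and Arrdc4, which encode brakes on glucose uptake, were lower in DKO than in WT, 3 of 7 tested regulators, with 17.6% of all genes lower. They were singled out after their values were seen, as were Pdpr, Pdhx, Pdp2, Bsg, Bhlhe40, P4ha1, Slc2a6, Slc2a8 and Slc16a7. Mlxip was at 8.83, 9.68 and 8.75 (WT), 7.0, 7.26 and 7.23 (E2f8 KO), 7.89, 9.66 and 9.94 (Rb KO) and 7.25, 7.55 and 7.49 (DKO). It fell by 1.92 ± 0.42 (limma adjusted p = 0.00682) in E2f8 KO and by 1.66 ± 0.42 (adjusted p = 0.00768) in DKO against WT. As for Slc2a1, the Rb KO array low in B cell markers was low in Mlxip, and with the B cell mean as a covariate the DKO difference was 1.58 (adjusted p = 0.0669). Txnip fell by 0.74 ± 0.20 (adjusted p = 0.0169) and by 0.62 ± 0.20 (adjusted p = 0.0269) in the same comparisons, calls lost in 3 and 4 of the 12 fits without 1 array, and Arrdc4 by 0.88 ± 0.19 (adjusted p = 0.00279) in DKO. Unlike Mlxip, both stayed lower in DKO than in WT under every alternative setting. Their DKO calls were lost under 3 of 13 and 1 of 12 such settings (adjusted p up to 0.754 and 0.497). Arrdc4 was dim in DKO, at 5.19, 5.70 and 6.04, with replicates 1 and 2 below the filter level of 5.84. Of 16 tested genes of the hypoxia response outside glycolysis, 7 rose and 2 fell in DKO against WT, against 20.6% and 17.6% of all genes. Those that fell were Bhlhe40, of a transcriptional repressor, by 1.42 ± 0.31 (adjusted p = 0.00343), and P4ha1, of a collagen prolyl hydroxylase, by 0.82 ± 0.28 (adjusted p = 0.0338). Bhlhe40 was dim in DKO, at 5.05, 5.25 and 6.12, with replicates 1 and 2 below the filter level of 5.84, so the size of its fall rests on dim signals. The P4ha1 call was lost in 5 of the 12 fits without 1 array, and the Bhlhe40 difference was 0.73 (adjusted p = 0.4) with the B cell covariate. Ddit4, an inhibitor of mTOR signalling that also answers to other stresses, rose by 1.28 ± 0.20 (adjusted p = 0.000338) in DKO, and Kdm3a, a histone demethylase gene, rose by 0.80 ± 0.17 (adjusted p = 0.00617) in E2f8 KO. Fitted with that covariate, these differences were 0.64 for Ddit4 (adjusted p = 0.431) and 0.37 for Kdm3a (adjusted p = 0.689). The oxygen-sensing hydroxylase gene Hif1an was 0.77 ± 0.17 higher in DKO than in E2f8 KO (adjusted p = 0.0364), a call lost in 7 of the 12 fits without 1 array.

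**Figure D5:**
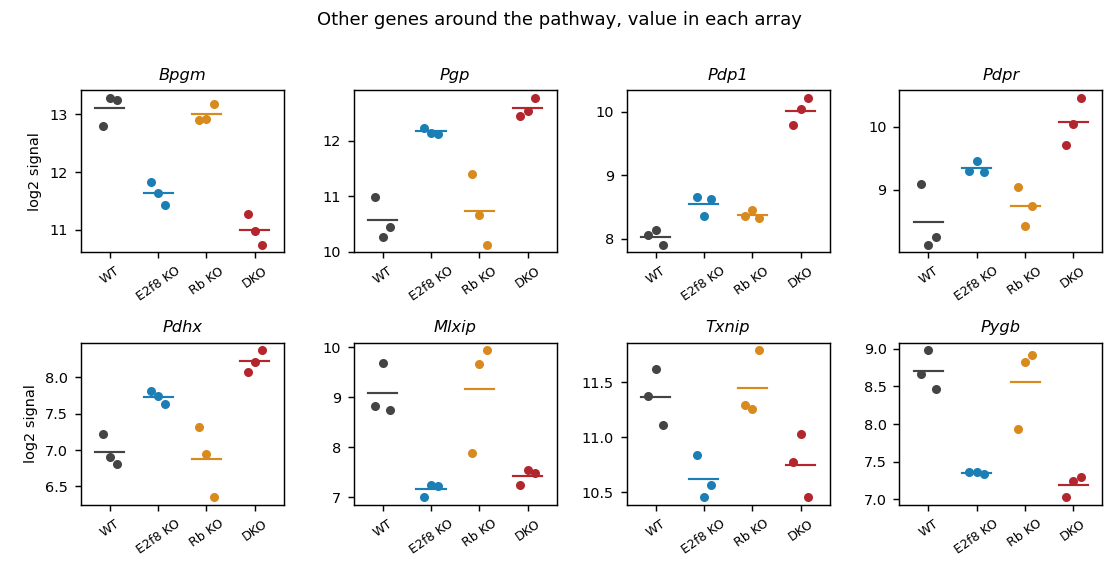
Log2 signal of 8 genes around the pathway, with 1 point per array, a bar at the mean of 3 arrays, and a vertical axis of its own in each panel. Bpgm is lower in E2f8 KO and DKO than in WT and Rb KO, Pdp1 stands apart in DKO (9.79 to 10.22), and Mlxip has a low Rb KO point at 7.89.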

How the data were processed

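RNA of sorted mouse spleen cells was hybridised to 12 single-channel Affymetrix arrays, 3 for each genotype label. The deposited log2 values, 1 per probe set and array, ran from 1.0678 to 14.8423. The base was inferred from the values, and MAS5 is the tool named (per the submitters' processing notes, version not stated). How arrays were corrected for background and normalized is not stated there, and array medians lay between 6.22 and 6.35. No batch or scan date was given. Precision is limited by the number of arrays.

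Of 35557 probe sets, 21789 name 1 gene, 1621 several and 12147 none listed. Names were updated by gene number (21698 matched). Probe sets in the lowest 40% by mean (14223, up to 5.84) were removed, and the brightest probe set per gene kept, which gave 12980 genes. Differences were fitted with limma 3.58.1 in R 4.3.3 over all 12 arrays (8 residual degrees of freedom, mean trend, two-sided tests) with Benjamini-Hochberg adjustment over all genes in each of 6 comparisons. Adjusted p-values reflect the spread between arrays that the labels call biological replicates. The members and lists were chosen with earlier results of these data known. Up to 6 called members and up to 4 called pathway genes per comparison, those with the smallest p, were to be named with full statistics, and the text gives all called members.

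The fit was tested on simulated data. Alternatives were other filters, normalizations, probe set rules and variance settings, the replicate number as a block, marker list means as covariates, and each array left out. Another Hk1 probe set and a fit without the 2 arrays of low Xist were added after the data were seen.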

Additional observations from a re-analysis of the deposited data

How the results depend on the processing

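The 59 results checked are those of the called members and of the named pathway genes other than Slc2a6, Slc2a8 and Slc16a7. Their directions stayed the same under every alternative except the B cell covariate and other probe sets of Hk1. Of these 59 calls, 9 were kept, 31 lost and 19 turned in sign with the B cell covariate, and 36 were kept and 23 lost with the granulocyte covariate. The slopes of both covariates come from differences within groups, and the list means spread most within Rb KO for B cells (SD 1.23) and within DKO for granulocytes (SD 1.72). B cell means reached at most 8.21 in E2f8 KO and 7.40 in DKO, below all of WT (from 10.45) and Rb KO (from 9.86). The B cell slope was thus extended between groups that share no range. With the B cell covariate the counts were 2 for E2f8 KO against WT, 5 for DKO against WT, 4 for DKO against Rb KO, 1 for the interaction and 7 in DKO against E2f8 KO, and all of these were higher. With it, signs turned in E2f8 KO against WT for Pfkp (0.27), Slc2a1 (0.38), Pfkfb3 (0.022) and Mlxip (0.36), and in DKO against WT for Pfkp (1.21), Slc2a1 (1.38), Pfkfb3 (0.36), Mlxip (1.58), Pygb (0.14), Bhlhe40 (0.73) and Bsg (-0.19). In DKO against Rb KO they turned for Pfkp (1.39), Slc2a1 (1.49), Pfkfb3 (0.42), Pfkfb4 (0.49), Pgm1 (1.01), Mlxip (1.66), Pdp2 (0.16) and Slc16a1 (-0.65). With the granulocyte covariate the counts were 3 for E2f8 KO and 3 for DKO against WT, all lower. Array weights, whose estimate stopped before it converged, gave 12 members for E2f8 KO against WT and 3 for DKO against E2f8 KO, and the fit of only the groups compared gave 9 for E2f8 KO against WT. A stricter filter left 20 members tested and 6 called for DKO against Rb KO. Hk1 turned to 0.0295 in DKO against WT with the mean of its probe sets, and to 0.25, 0.56 and 0.56 with its other probe set in E2f8 KO against WT, DKO against WT and DKO against Rb KO. In the fits without 1 array, counts ran from 3 to 9 for E2f8 KO against WT, from 6 to 10 for DKO against WT and from 6 to 12 for DKO against Rb KO, and stayed at 0 in the others. Same-numbered arrays of different labels had deviations from their group means that correlated between -0.38 and 0.57 (median 0.07). For differently numbered arrays the range was -0.70 to 0.61 (median -0.08). Of 12 arrays, 1 correlated best with an array of its own number, so the numbers were not taken as pairs. The replicate block gave 5, 9 and 10 members in these comparisons and turned no direction. Leaving out both arrays of low Xist gave 4, 8 and 9. The cause of each shift was not tested.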
